A study of Homo sapiens with 16 samples.

Results

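Entinostat added to Nutlin-3A was examined in HCT116 p53+/+ cells by comparing the libraries titled WT-Combo with those titled WT-N3A, which are 4 of the 16 libraries of the series. HCT116 is a human colorectal cancer cell line. The p53+/+ line and its p53-/- counterpart were each given DMSO vehicle, Nutlin-3A at 5 µM, Entinostat at 2.5 µM or both drugs for 8 hours, with 2 libraries for each of the 8 groups. The labels give these doses for the single agents and do not repeat them for the combination. The 4 libraries of the contrast are therefore Nutlin-3A alone (replicates 1 and 2) and Nutlin-3A with Entinostat (replicates 1 and 2), and Nutlin-3A is common to all of them. Poly(A) RNA was sequenced and the authors deposited RPKM values (mapped reads scaled by gene length and by library size), a level that is comparable between genes because of the division by gene length. Of 20612 genes in the table, 12466 (60.5%) had a mean of at least 0.5 RPKM over the 16 libraries and were tested.

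Nutlin-3A occupies the p53-binding pocket of MDM2, the ubiquitin ligase that marks p53 for destruction, so that p53 accumulates and activates its target genes without DNA damage. Entinostat inhibits class I histone deacetylases, which work in corepressor complexes that remove acetyl groups from histones and from other proteins. CFLAR encodes FLIP, a relative of caspase-8 without protease activity that holds caspase-8 back at death receptors such as FAS and TRAIL-R2 (TNFRSF10B). In colorectal cancer cells FLIP is known as a barrier to cell death from these receptors, and both CFLAR and the receptor genes are known p53 targets.

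The libraries held 45902800 to 55507300 reported alignments each. The summed level of 14 epithelial markers was 2828 to 2948 RPKM in the 2 Nutlin-3A libraries and 4184 to 4846 in the 2 combination libraries. EPCAM, an epithelial adhesion molecule, was at 133 and 140 RPKM with Nutlin-3A and at 126 and 145 with the combination. The summed level of 15 markers of blood, endothelial, stromal and liver cells was 18.9 to 20.3 against 23.6 to 29.2 RPKM, with PTPRC and CD3E at 0 in all 4 libraries and 3 of the 15 at a mean of 0.5 RPKM or more. The combination pair was the least alike of the 8 pairs, with a median absolute difference between replicates of 0.203 on the log2 scale against 0.126 for the Nutlin-3A pair. Fewer genes were at 0 in the combination libraries (2712 and 3085) than in the Nutlin-3A libraries (4032 and 3918). In bulk RNA, a change in the share of cells and a change in RNA per cell cannot be told apart. The labels do not say whether the replicates were separate cultures, so the p-values measure only the spread between these libraries.

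The promoter sequences of CFLAR, FAS, PLK3 and CDKN1A are shown because these 4 p53-regulated genes moved in 3 different ways: the first pair fell, PLK3 rose, and CDKN1A stayed within its replicate spread. Each line gives the 250 bases before a RefSeq transcript start on the plus strand of GRCh38.p14, with GC boxes (GGGCGG, the Sp1-type element, searched on both strands) in capitals. The windows are chr2:201118466-201118715 for CFLAR, chr10:88990548-88990797 for FAS, chr1:44800127-44800376 for PLK3 and chr6:36678464-36678713 for CDKN1A.
CFLAR: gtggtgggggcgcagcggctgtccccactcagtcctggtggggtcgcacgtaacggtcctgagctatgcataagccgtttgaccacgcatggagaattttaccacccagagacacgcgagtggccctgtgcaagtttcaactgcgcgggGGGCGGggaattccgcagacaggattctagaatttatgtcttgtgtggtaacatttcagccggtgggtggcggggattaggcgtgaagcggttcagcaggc
FAS: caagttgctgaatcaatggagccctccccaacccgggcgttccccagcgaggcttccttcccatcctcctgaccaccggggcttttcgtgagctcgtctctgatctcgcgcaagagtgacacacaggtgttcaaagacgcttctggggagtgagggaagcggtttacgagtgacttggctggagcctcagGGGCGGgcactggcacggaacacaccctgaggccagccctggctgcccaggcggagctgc
PLK3: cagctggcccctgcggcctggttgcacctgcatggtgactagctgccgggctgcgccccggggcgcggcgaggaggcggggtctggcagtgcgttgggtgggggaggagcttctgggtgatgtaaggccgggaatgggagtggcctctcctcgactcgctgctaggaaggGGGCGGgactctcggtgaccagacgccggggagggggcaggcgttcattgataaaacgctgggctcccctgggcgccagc
CDKN1A: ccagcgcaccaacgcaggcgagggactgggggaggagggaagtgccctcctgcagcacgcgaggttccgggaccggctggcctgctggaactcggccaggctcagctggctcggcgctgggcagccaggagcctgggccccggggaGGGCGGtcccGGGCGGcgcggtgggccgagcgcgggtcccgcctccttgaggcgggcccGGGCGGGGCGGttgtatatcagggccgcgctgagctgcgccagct
The CFLAR, FAS and PLK3 windows each held 1 GC box and the CDKN1A window held 4, of which the last pair overlap by 1 base. CCAAT, the site of the factor NF-Y, was absent from all 4 windows on both strands. The core promoter element TATAAA was absent from them as well, and so was the E-box, here the letters CACGTG. Among 9378 tested genes with a window, 69.6% held a GC box, 35.6% held the NF-Y site, 4.7% the core promoter element and 9.09% the E-box. Of the genes that rose with Entinostat 73.1% held a GC box, and of those that fell 65% did.

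CFLAR and FAS were lower and PLK3 was higher with Nutlin-3A plus Entinostat than with Nutlin-3A alone. CFLAR stood at 4.14 and 3.71 RPKM in the Nutlin-3A libraries and at 1.28 and 1.87 RPKM in the combination libraries. Both combination libraries were below both Nutlin-3A libraries, and also below the DMSO libraries (1.94 and 2.07 RPKM). The ratio of means was 2.5-fold lower, a change of -1.11 ± 0.17 (SE, n = 2 a group) on the log2(RPKM + 0.5) scale with an adjusted p of 0.00095. The deposited values are per gene, so the long and short FLIP isoforms are not separated. FAS, the receptor for FAS ligand, stood at 20.8 and 17.3 RPKM with Nutlin-3A and at 4.86 and 8.05 RPKM with the combination. The combination libraries lay between the DMSO libraries (4.43 and 3.15 RPKM) and the Nutlin-3A libraries without touching either. The FAS level was 2.95-fold lower than with Nutlin-3A, with a log2 change of -1.52 ± 0.21 and an adjusted p of 0.00075. PLK3, a polo-like kinase that acts in stress and DNA damage responses, stood at 70.3 and 50.6 RPKM with Nutlin-3A and at 446 and 176 RPKM with the combination. Both combination libraries were far above both Nutlin-3A libraries, and they differed from each other by more than any of the other PLK3 pairs. The PLK3 ratio of means was 5.14-fold, with a log2 change of 2.22 ± 0.36 and an adjusted p of 0.0012. These 3 calls remained with any 1 of the 4 libraries left out.

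The same addition in p53-/- cells gave other values for this trio. CFLAR went from 2.42 and 2.38 RPKM to 1.19 and 1.65 RPKM, a log2 change of -0.60 (adjusted p = 0.024). FAS stood at 1.88 and 1.46 RPKM with Nutlin-3A and at 2.19 and 2.21 RPKM with the combination, a log2 difference of 0.32 with an adjusted p of 0.3. PLK3 stood at 15 and 11 RPKM and at 21.8 and 15.8 RPKM, a log2 difference of 0.51 with an adjusted p of 0.32. The difference between genotypes was -0.50 for CFLAR (95% interval -1.02 to 0.01, adjusted p = 0.8), -1.85 for FAS (-2.51 to -1.18, adjusted p = 0.056) and 1.71 for PLK3 (0.61 to 2.81, adjusted p = 0.43). Fitted without the replicate number, none of the 3 differences passed the test over all 12466 genes. With the replicate number in the fit FAS and PLK3 passed, with values given in the part on processing. FAS (adjusted p = 0.012) and PLK3 (0.028) passed without combination replicate 2. FAS alone of the 3 also passed with a pseudocount of 1 (adjusted p = 0.037), with median-of-ratios scaling (0.044) and without a mean-variance trend (0.041). None of the 3 passed with a pseudocount of 0.1, with quantile normalization, with a minimum of 1 RPKM or without a minimum.

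**Figure D1:**
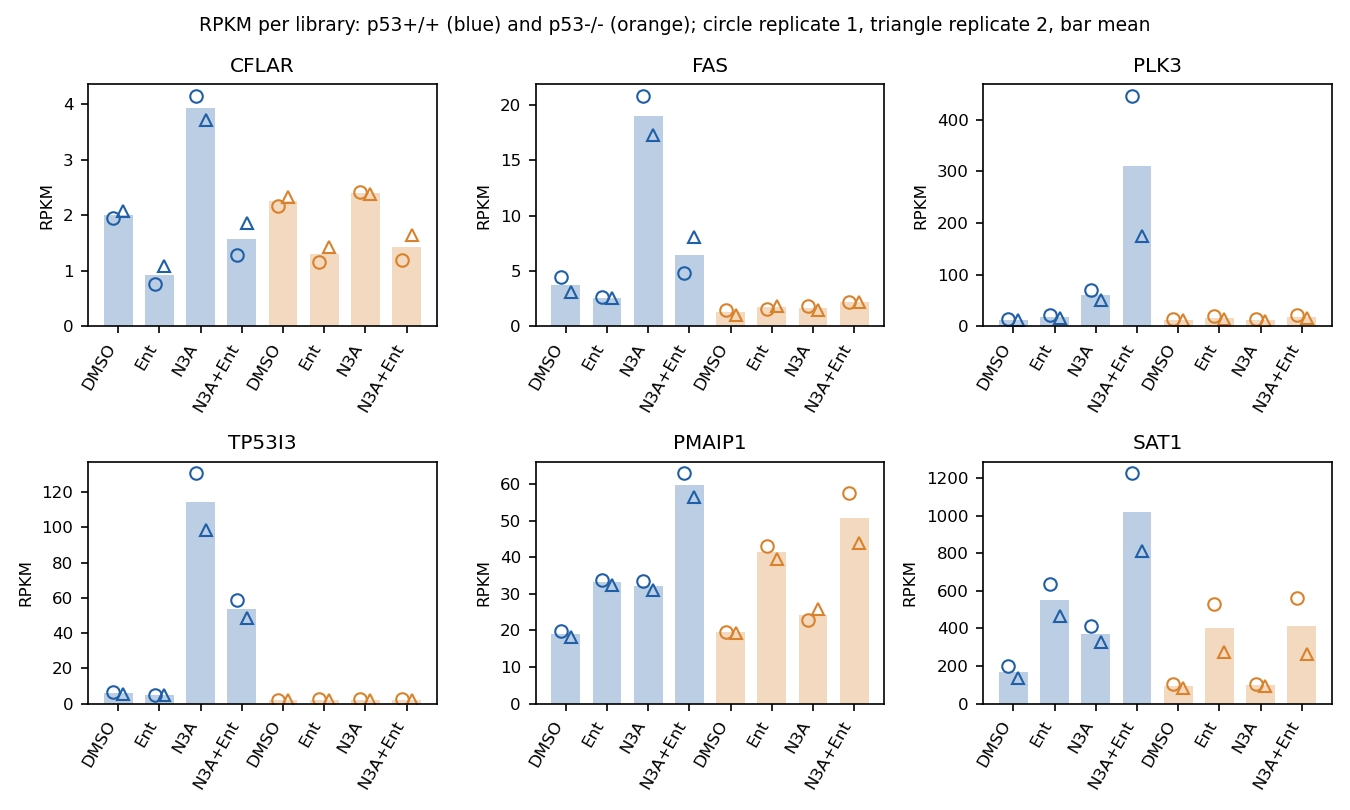
RPKM of CFLAR, FAS, PLK3, TP53I3, PMAIP1 and SAT1 in all 16 libraries, by treatment (DMSO, Entinostat, Nutlin-3A, both), with p53+/+ in blue and p53-/- in orange. Bars are means of 2 libraries, circles are replicate 1 and triangles replicate 2. CFLAR, FAS and TP53I3 were lower in the p53+/+ combination libraries than in the Nutlin-3A libraries, and PLK3, PMAIP1 and SAT1 were higher.

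Over all tested genes, 4323 of 12466 (34.7%) differed between combination and Nutlin-3A in p53+/+ cells at an adjusted p under 0.05. Of these, 2072 (16.6%) were higher with Entinostat and 2251 (18.1%) were lower. Changes of at least 1 on the log2 scale were mostly rises, with 472 genes up and 132 down, and the median over all genes was -0.02. In p53-/- cells 319 were up and 32 down. A gene near 0 without Entinostat is tested only if Entinostat raises it, and the pseudocount limits the falls of low genes. All 4323 had the same sign in both same-numbered pairs, but they were called from these same libraries, so this is no separate support. The combination and Nutlin-3A libraries did not overlap for 66.2% of tested genes, 30.9% higher and 35.3% lower. The count depended on single libraries: it was 1698 (924 higher, 774 lower) without combination replicate 1 and 1975 (1059 higher, 916 lower) without Nutlin-3A replicate 1. It was 2804 (1355 higher, 1449 lower) without Nutlin-3A replicate 2 and 4818 (2148 higher, 2670 lower) without combination replicate 2. Without the expression minimum the split was 2669 higher and 2064 lower, so falls did not outnumber rises under every setting.

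The 12 largest rises among genes with a mean of at least 1 RPKM included secreted and matrix proteins, neuronal proteins, a metallothionein and genes scarcely detected with Nutlin-3A alone. CTGF, a matricellular growth factor, was at 1.8 and 1.2 RPKM with Nutlin-3A and at 72.5 and 21.3 RPKM with the combination, a 31.2-fold ratio of means and a log2 change of 4.33 ± 0.66 (adjusted p = 0.00096). CEND1, a neuronal cell cycle exit protein, went from 0.181 and 0.135 to 15.9 and 4.36 RPKM, and its log2 change of 3.76 ± 0.65 understates the ratio because the starting level is below the pseudocount. VGF, the precursor of secreted neuropeptides, went from 11.9 and 11.1 to 212 and 74.3 RPKM (3.39 ± 0.54, adjusted p = 0.0012). In all 3, replicate 1 was the higher of the combination pair, and also of the other Entinostat pairs of both genotypes. CYP4F2, a fatty acid hydroxylase, went from 1.12 and 1.06 to 18.9 and 6.19 RPKM (2.85 ± 0.44). MT1X, a metal-binding metallothionein whose close copies may share reads, went from 41.9 and 40.1 to 316 and 167 RPKM (2.47 ± 0.36). CXCR4, a chemokine receptor, went from 0.128 and 0.0667 to 3.89 and 1.62 RPKM (2.36 ± 0.41). Groups that did not overlap were a condition of being named here. CEND1, CXCR4 and EFR3B were below 0.5 RPKM in every library without Entinostat. They met the expression minimum through the Entinostat libraries of both genotypes and so had to rise. Combination replicate 1 was again the higher for CYP4F2, MT1X and CXCR4, and so was replicate 1 of their other Entinostat pairs. The remaining rises were 2.73 for DHRS2, a mitochondrial reductase, 2.54 for the neurotrophin receptor NGFR, 2.45 for ZCCHC12, 2.32 for the potassium channel subunit KCNS3, 2.32 for EFR3B and 2.32 for the matrix protein THBS1. The call of NGFR was lost without combination replicate 1 (adjusted p = 0.08).

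In p53-/- cells 11 of these 12 genes were also called higher when Entinostat was added to Nutlin-3A, beside 13.6% of all tested genes. CYP4F2 was not called there (0.74, adjusted p = 0.25). It stood at 0.0639 and 0.0496 RPKM with Nutlin-3A and at 0.796 and 0.163 RPKM with the combination. Levels this low against the pseudocount shrink the log2 change. CTGF rose by 3.28 there, VGF by 2.27 and CXCR4 by 2.38. The genotype difference for CYP4F2 was 2.11 with an adjusted p of 0.43, and none of the 12 passed that test. Its ratio of means was 11.6-fold in p53+/+ cells and 8.45-fold in p53-/- cells.

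The 12 largest falls included a growth factor ligand, a phosphodiesterase, transcription factors and an adhesion receptor, and 11 of them are described. PDE4B, which degrades cyclic AMP, went from 10.2 and 10.8 to 0.901 and 1.97 RPKM (-2.57 ± 0.42). EREG, the EGF receptor ligand epiregulin, went from 114 and 99.5 to 15.2 and 23.9 RPKM (-2.45 ± 0.25). MKX, a homeobox transcription factor, went from 3.37 and 4.05 to 0.264 and 0.567 RPKM (-2.22 ± 0.21). HMGA2, an architectural chromatin protein of embryonic and tumour cells, went from 43.9 and 46.2 to 7.54 and 15.9 RPKM (-1.99 ± 0.40). Combination replicate 1 was the lower of the pair in these 4 genes. For PDE4B, EREG and MKX replicate 1 was also the lower of the other Entinostat pairs. The rest were -2.27 for HOXA10-AS, -2.06 for the homeobox gene HOXB8, -2.06 for the protocadherin PCDH7, -2.05 for the adhesion receptor ADGRF1, -1.98 for MALL, -1.90 for ITPRIPL2 and -1.89 for the vitamin D hydroxylase CYP24A1. HOXA10-AS is an antisense transcript, and whether strand was used in counting is not stated in the labels. With combination replicate 1 left out the calls of MALL (adjusted p = 0.054), ITPRIPL2 (0.067) and CYP24A1 (0.25) were lost, and that of CYP24A1 was also lost without Nutlin-3A replicate 1 (0.067) or replicate 2 (0.17). In p53-/- cells 8 of these 11 fell too, where 9.75% of all tested genes fell, and ADGRF1, MALL and ITPRIPL2 did not pass the test.

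**Figure D2:**
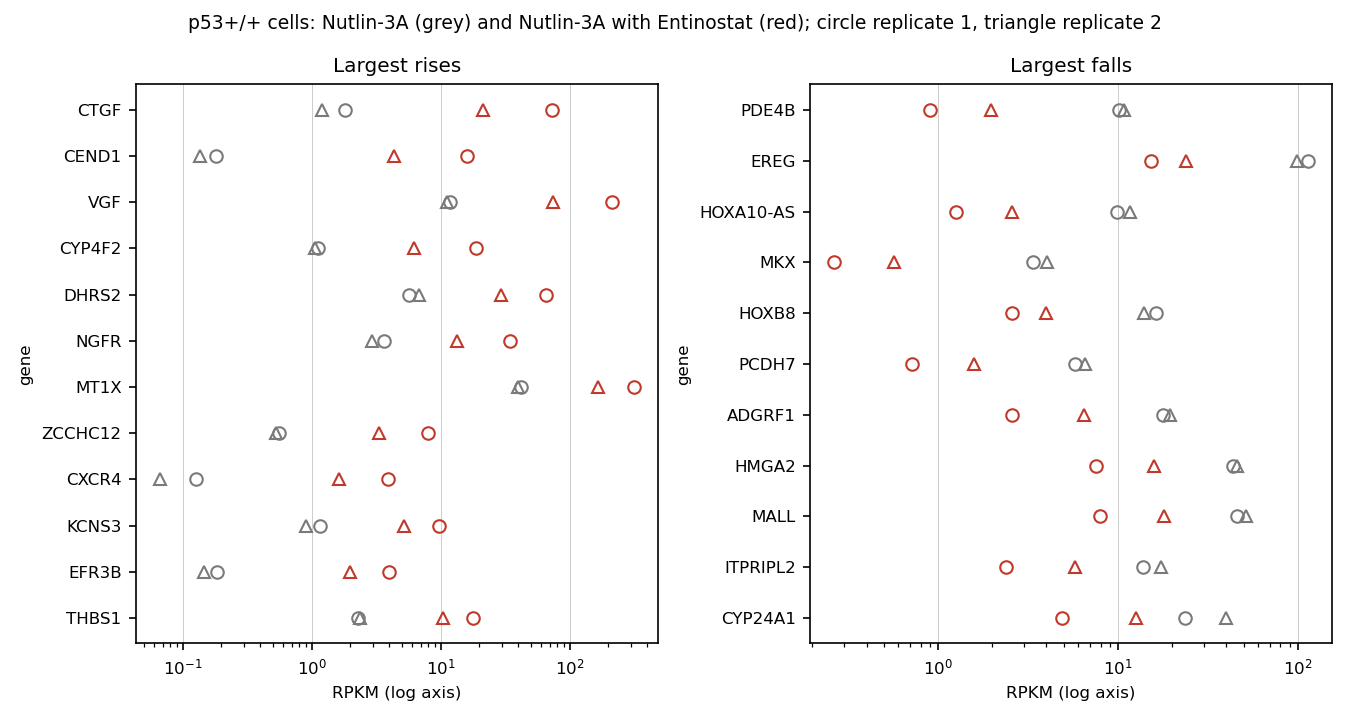
RPKM on a log axis of the 12 genes with the largest rises (left) and 11 of those with the largest falls (right) in p53+/+ cells, with Nutlin-3A in grey and Nutlin-3A plus Entinostat in red. Circles are replicate 1 and triangles replicate 2. Grey and red points are apart for each gene because that was part of the choice of genes, and CTGF spans 1.2 to 72.5 RPKM.

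Among p53 target genes, falls outnumbered rises. Of 68 listed targets 62 were tested, 5 were below the expression minimum and 1 was not analysed here. With Entinostat added, 26 of the 62 fell, 9 rose and 27 did not pass the test, with a median log2 difference of -0.26 against -0.02 over all genes. For comparison, 18.1% of all tested genes fell and 16.6% rose. Without combination replicate 1 the counts were 14 lower and 2 higher, without Nutlin-3A replicate 1 they were 17 and 6, without Nutlin-3A replicate 2 they were 22 and 5, and without combination replicate 2 they were 25 and 8. Against DMSO, the combination still left 52 of the 62 higher and 5 lower, with a median of 1.13, in a comparison where 50% of all genes differed and 23.2% were higher. Nutlin-3A alone against DMSO gave 52 higher and 1 lower, with a median of 1.45, where 7.89% of all genes were higher and 9.5% lower. These comparisons share the DMSO libraries with each other and the drug libraries with the main contrast.

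In the feedback group of p53 targets, 3 of 11 rose and 6 fell, beside 16.6% and 18.1% of all tested genes. MDM2, the ligase that Nutlin-3A blocks, was at 328 and 268 RPKM with Nutlin-3A and at 368 and 406 RPKM with the combination, a rise of 0.38 ± 0.12 (adjusted p = 0.025). PPM1D, the phosphatase WIP1 that resets p53 signalling, rose from 26.7 and 27.5 to 47.6 and 34.6 RPKM (0.58 ± 0.13). TRIAP1, a mitochondrial lipid transfer protein that counters apoptosis, fell from 83.7 and 73.1 to 35.4 and 41.2 RPKM (-1.02 ± 0.12, adjusted p = 0.00038). These 3 genes had no overlap between groups, as held for 66.2% of all tested genes, and MDM2 had the narrowest gap for its size. The ubiquitin ligase RCHY1 (-0.84), the RNA-binding protein ZMAT3 (-0.66), the ribonucleotide reductase subunit RRM2B (-0.58), cyclin G1 (CCNG1, -0.54) and the nuclease AEN (-0.44) fell as well. PLK2 (0.00) and TP53INP1 (0.29) did not pass the test. In the arrest group, 2 of 10 rose and 2 fell, which is near the shares over all tested genes. CDKN1A, the CDK inhibitor p21, was at 1059 and 763 RPKM with Nutlin-3A and at 1069 and 722 RPKM with the combination. The CDKN1A groups overlapped, and the log2 difference was -0.03 (95% interval -0.85 to 0.78, adjusted p = 0.95). GDF15, a stress-induced cytokine, was at 909 and 614 and at 1107 and 670 RPKM (0.21, adjusted p = 0.66). GADD45B (1.49) and BTG1 (0.62), which restrain growth, rose, and the AKT inhibitor PHLDA3 (-0.82) and 14-3-3 sigma (SFN, -0.80) fell. Of the 12 called genes named here, 9 lost their call without combination replicate 1 (MDM2, PPM1D, RCHY1, ZMAT3, RRM2B, CCNG1, BTG1, GADD45B and SFN, adjusted p 0.057 to 0.32). MDM2 was also lost without combination replicate 2 (0.1) and Nutlin-3A replicate 2 (0.2). Without Nutlin-3A replicate 1 RCHY1, RRM2B, CCNG1, BTG1 and GADD45B were lost (0.05 to 0.11), and without its replicate 2 CCNG1, BTG1 and SFN were (0.069 to 0.2, MDM2 included).

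In p53-/- cells CDKN1A started far lower, at 26.9 and 16.7 RPKM with Nutlin-3A, and rose to 100 and 54.5 RPKM with the combination. That rise was 1.78 (95% interval 0.97 to 2.59, adjusted p = 0.007), while the genotype difference of -1.81 did not pass its test (adjusted p = 0.42). Over the 62 p53 targets, 14 rose and 8 fell in p53-/- cells with a median of 0.15, where 23.4% of all genes were called, 13.6% higher and 9.75% lower.

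The groups of this paragraph stand beside 16.6% of all tested genes higher and 18.1% lower. Among targets with roles in cell death, 2 of 14 rose and 7 fell. TP53I3, a quinone reductase of the oxidative stress response, was at 131 and 98.3 RPKM with Nutlin-3A and at 58.6 and 48.4 RPKM with the combination (-1.08 ± 0.18, adjusted p = 0.0016). BAX, which permeabilises mitochondria, fell from 63.9 and 55.8 to 34.7 and 38.4 RPKM (-0.70 ± 0.10, adjusted p = 0.00079). PMAIP1, the BH3-only protein NOXA, rose from 33.4 and 31.1 to 63 and 56.4 RPKM (0.88 ± 0.12, adjusted p = 0.00065). The groups did not overlap for any of these genes, as held for 66.2% of all tested genes. BBC3, the BH3-only protein PUMA, was at 31.4 and 29.2 and at 31.4 and 19.9 RPKM (-0.27, adjusted p = 0.51). The caspase-2 scaffold PIDD1 (-0.67) and the oxidoreductase AIFM2 (-0.85) fell, and the membrane protein PERP rose (0.44). Among metabolic targets 1 of 10 rose and 5 fell. PANK1, a coenzyme A synthesis kinase, fell from 5.64 and 4.8 to 2.16 and 2.06 RPKM (-1.13 ± 0.11, adjusted p = 0.00018). SAT1, which acetylates polyamines, rose from 413 and 326 to 1226 and 810 RPKM (1.44 ± 0.37, adjusted p = 0.012). The AMPK subunit PRKAB1 (-0.63), SESN1 (-0.43) and SESN2 (-0.62), which restrain mTORC1, and the fructose bisphosphatase TIGAR (-0.40) fell. FDXR (0.13) and DDIT4 (0.73, adjusted p = 0.21) did not pass the test. Of 6 repair targets, POLH (-0.40), a translesion polymerase, and RPS27L (-0.42) fell, and XPC (0.10) and DDB2 (0.20) did not pass. Among the other targets, KITLG (-1.58), the lipid transporter ABCA12 (-1.26), NINJ1 (-0.66) and ANKRD11 (-0.57) fell, and SERPINB5 (0.03) was nearly level.

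Several of these calls rested on single libraries. Leaving out combination replicate 1 ended 8 of 18 (PERP, SESN1, SESN2, TIGAR, SAT1, POLH, KITLG and ANKRD11, adjusted p 0.057 to 0.2). Without Nutlin-3A replicate 1, PERP, SESN1, SESN2, TIGAR, RPS27L and POLH were lost (0.058 to 0.17). Without Nutlin-3A replicate 2, PERP, SESN2, SAT1 and POLH were lost (0.058 to 0.13), and without combination replicate 2, PERP and SESN2 were (0.065 and 0.1).

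**Figure D3:**
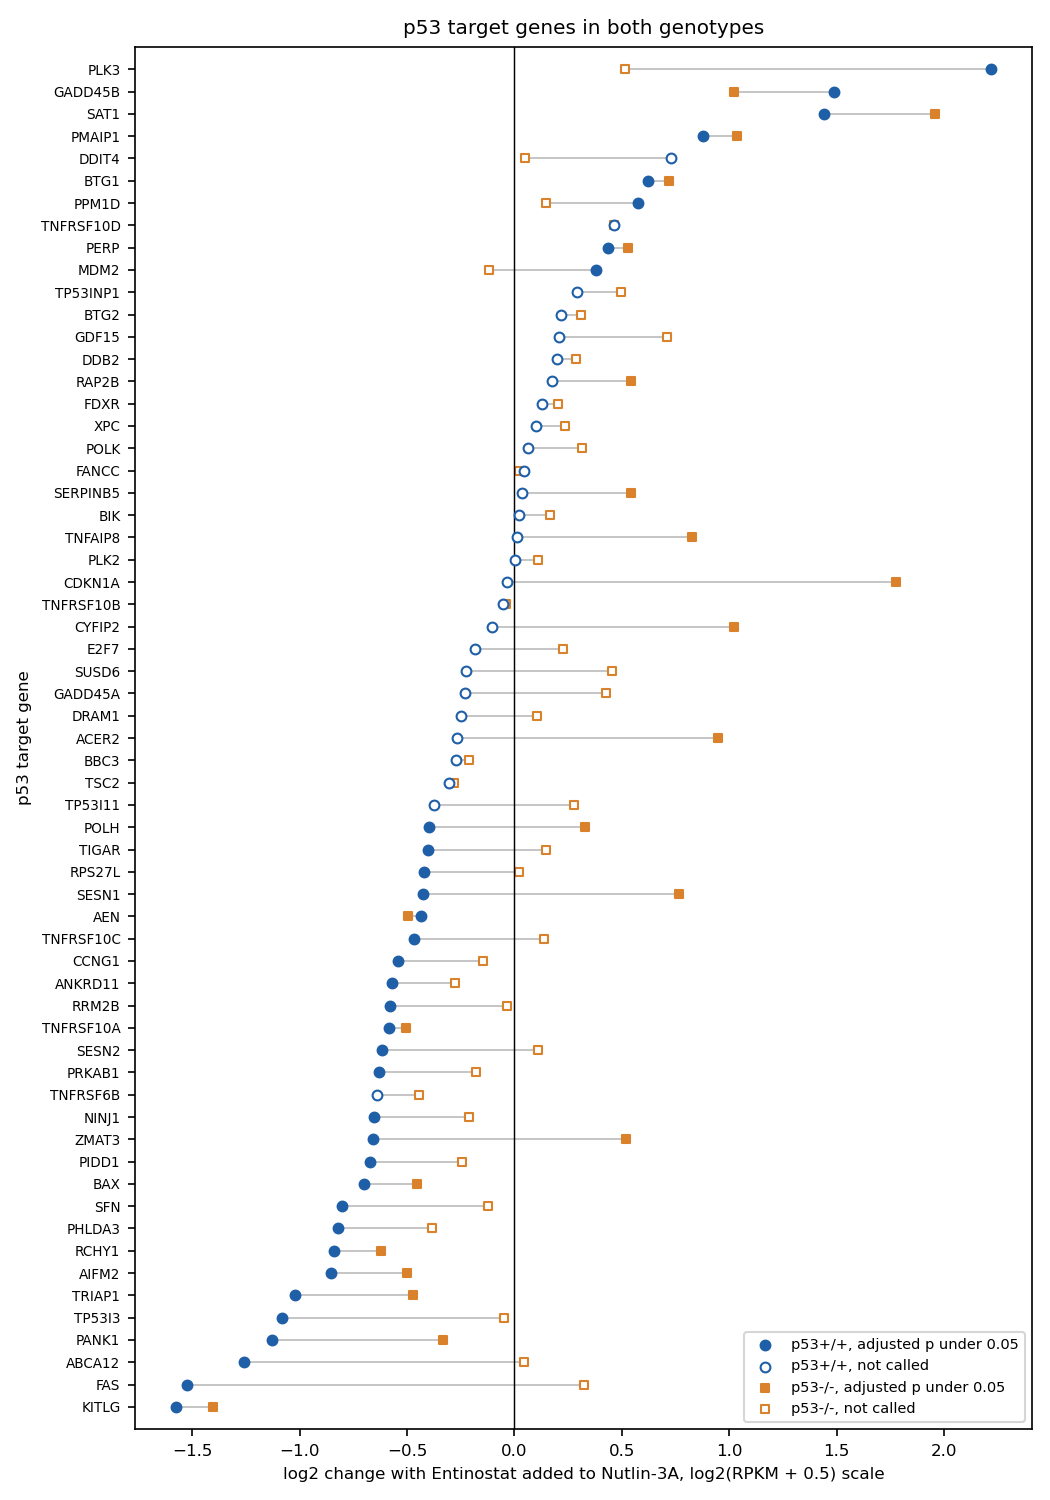
Log2 change with Entinostat added to Nutlin-3A for 61 of the 62 tested p53 targets, ordered by the p53+/+ value, with p53+/+ as blue circles and p53-/- as orange squares. Filled symbols had an adjusted p under 0.05, which holds for 34 circles, 26 of them below 0 and 8 above.

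In the death receptor pathway, 8 of 23 tested genes fell and 4 rose, against 18.1% and 16.6% of all genes, with a median of -0.06. Besides FAS, the TRAIL receptor TNFRSF10A fell from 37.8 and 31.7 to 23.2 and 22.6 RPKM (-0.59 ± 0.11, adjusted p = 0.0031). TNFRSF10B, the TRAIL receptor TRAIL-R2, was at 103 and 94.3 RPKM with Nutlin-3A and at 101 and 89.7 RPKM with the combination. The TNFRSF10B groups overlapped and the log2 difference was -0.05 (95% interval -0.28 to 0.17, adjusted p = 0.72). The decoy receptor TNFRSF10C (-0.47) and the TNF receptor TNFRSF1A (-0.42) fell, and the death receptor TNFRSF21 rose (0.68). The decoy TNFRSF10D had a log2 difference of 0.47 with an adjusted p of 0.076. Inside the cell, the initiator protease CASP8 fell from 9.19 and 9.58 to 4.73 and 6.65 RPKM (-0.69 ± 0.22, adjusted p = 0.03), alongside CFLAR. The adaptor FADD rose (0.33). BID (-0.58), the caspase-8 substrate that links receptors to mitochondria, and the caspase inhibitor XIAP (-0.75) fell, while BIRC3 (0.95), another inhibitor of apoptosis, rose from 1.27 and 1.47 to 3.02 and 3.17 RPKM. The kinase RIPK1 (-0.06) did not pass the test. Calls lost without combination replicate 1 were those of TNFRSF10C, TNFRSF1A, FADD, CASP8 and XIAP (adjusted p 0.052 to 0.23), and the list then had 4 lower and 2 higher. The same 5 were lost without Nutlin-3A replicate 1 (0.062 to 0.21), TNFRSF1A, FADD, CASP8 and XIAP without its replicate 2 (0.054 to 0.13), and TNFRSF10C and TNFRSF1A without combination replicate 2 (0.078 and 0.099).

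In the BCL2 family, 6 of 15 tested genes fell and 4 rose, against 18.1% and 16.6% of all genes, and both the protective and the killing members were split. Of the protective members, BCL2L1 (BCL-XL) fell from 97.2 and 80.8 to 47.1 and 53.6 RPKM (-0.81 ± 0.14, adjusted p = 0.002) and BCL2L2 (BCL-W) fell by 0.63. MCL1 was at 50.7 and 46.4 and at 51.2 and 52.6 RPKM (0.10, adjusted p = 0.38), and BCL2 rose by 0.55 from the low level of 0.168 RPKM in both Nutlin-3A libraries to 0.454 and 0.509. Of the pore formers BAX, BAK1 (-0.30) and BOK (-0.39) all fell. With a minimum mean of 1 RPKM the family had 2 genes higher and 6 lower. Among BH3-only proteins, which trigger the pore formers, BMF rose from 0.17 and 0.131 to 1.7 and 1.21 RPKM (1.58 ± 0.22, adjusted p = 0.00072). Being below 0.5 RPKM in both Nutlin-3A libraries, BMF met the expression minimum only through libraries where it was higher. BCL2L11, or BIM, rose from 2.35 and 2.25 to 4.81 and 4.98 RPKM (0.95 ± 0.10, adjusted p = 0.00026). With PMAIP1 these were 3 BH3-only genes that rose, whereas BID fell and BBC3 (-0.27, adjusted p = 0.51) did not pass the test. In p53-/- cells BMF rose by 1.02, BCL2L11 by 0.76 and PMAIP1 by 1.04. Leaving out 1 library ended the calls of BCL2L2, BCL2 and BOK (combination replicate 1, adjusted p 0.088 to 0.13), BCL2 and BAK1 (combination replicate 2, 0.082 and 0.2), BCL2L2, BCL2, BAK1 and BOK (Nutlin-3A replicate 1, 0.052 to 0.23) and BCL2, BAK1 and BOK (Nutlin-3A replicate 2, 0.051 to 0.091).

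Few cell cycle genes passed the test when Entinostat was added. Over all genes 16.6% rose and 18.1% fell. Of 8 CDK inhibitor genes, CDKN2B (p15), CDKN2C (p18) and CDKN2D (p19) rose and CDKN1B (p27) fell. CDKN2B went from 1.77 and 1.64 to 5.45 and 4.21 RPKM (1.26 ± 0.24, adjusted p = 0.0027), CDKN2C rose by 0.80, CDKN2D by 1.08, and CDKN1B went from 7.6 and 8.5 to 4.5 and 5.31 RPKM (-0.66 ± 0.14). CDKN1A, as above, overlapped between groups. Of the 4 tested polo-like kinases only PLK3 passed; the mitotic kinase PLK1 had a log2 difference of -0.41 (adjusted p = 0.081). Of 43 DNA replication and G1/S genes 6 rose and 2 fell, among them RRM2, a ribonucleotide reductase subunit, from 54.2 and 87.9 to 97.9 and 122 RPKM (0.66 ± 0.19), cyclin E2 (CCNE2, 0.81), thymidine kinase (TK1, 0.62) and thymidylate synthase (TYMS, -0.57). Of 39 mitotic genes 1 rose (AURKB, 0.57) and 4 fell, including AURKA (-0.61), cyclin B1 (CCNB1, -0.50) and UBE2C (-0.48). Of 23 recombination and Fanconi genes, 1 rose and 1 fell (PALB2, -0.63). The Nutlin-3A libraries differed from each other here: AURKA was at 13.2 and 19.6 RPKM and RRM2 at 54.2 and 87.9 RPKM. RRM2 was also higher in replicate 2 of the combination. Same-numbered libraries deviated together over all genes (r of 0.275 to 0.778 over 28 pairs of groups). Leaving out 1 library therefore also unbalances the replicate numbers, and its share in the counts below was not tested. With the replicate number in the fit, the G1/S list had 9 higher and 4 lower and the mitotic list 3 and 7. Without Nutlin-3A replicate 2 the G1/S list had 16 higher and 0 lower, and without its replicate 1 it had 0 higher and 3 lower. The mitotic list had 4 higher and 0 lower without Nutlin-3A replicate 2 and 0 higher and 8 lower without its replicate 1. Without combination replicate 1 these lists had 6 and 2 higher and none lower, and without its replicate 2 they had 1 and 0 higher and 5 and 9 lower. Each named cell cycle call except those of PLK3, CDKN1B and CDKN2B was lost without at least 1 library, with adjusted p of 0.054 to 0.21.

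Ribosome biogenesis genes were mostly lower. Of 32 tested, 23 fell and none rose, against 18.1% and 16.6% of all genes, with a median of -0.54. PPAN, which matures the large subunit, fell from 28.7 and 25.6 to 11.4 and 14.7 RPKM (-1.04 ± 0.15, adjusted p = 0.00086), and MYBBP1A, a nucleolar protein, from 35.5 and 34 to 15.1 and 19.4 RPKM (2.01-fold lower, adjusted p = 0.002). NIP7 (-0.96) and RRS1 (-0.91) fell as well, and none of these groups overlapped, as held for 66.2% of all tested genes. Of 20 ribosomal protein genes none passed the test. In p53-/- cells 20 of the 32 biogenesis genes fell, with a median of -0.49, where 9.75% of all genes fell. The count in p53+/+ cells was 11 without combination replicate 1, 13 without Nutlin-3A replicate 1, and 20 or 23 without the others, and NIP7 then had an adjusted p of 0.067 without combination replicate 1. HOX genes, which set positional identity, also moved in both directions, with 10 of 21 lower and 4 higher, beside the same 18.1% and 16.6%. HOXB8 fell from 16.3 and 14 to 2.59 and 4 RPKM, HOXB7 from 19 and 22.7 to 9.9 and 11.6 RPKM (-0.93), and HOXB4 (-0.92) and HOXA9 (-0.75) fell too. HOXD8 rose from 1.4 and 1.34 to 5.03 and 3.7 RPKM (1.37 ± 0.17). HOXB4 lost its call without combination replicate 1 (0.11) or Nutlin-3A replicate 2 (0.056), and 6 HOX genes were lower without combination replicate 1 or either Nutlin-3A library.

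Lists of genes of other tissues and of developmental pathways are given as a description, beside 16.6% of all genes higher and 18.1% lower. Of 12 tested neuronal genes 8 rose and none fell, of 8 mesenchymal genes 6 rose and none fell, and the 4 tested metallothioneins rose. A further 13 neuronal, 6 mesenchymal and 3 metallothionein genes were below the expression minimum. Members near 0 without Entinostat, such as SYP, SYT11 and SNAI2, met that minimum through the Entinostat libraries and so had to differ. With no minimum, 9 neuronal genes were higher and none lower, 4 mesenchymal genes were higher and 1 lower, and 4 metallothioneins were higher. Of the neuronal genes, the synaptic vesicle protein SYP rose from 0.386 and 0.403 to 4.06 and 1.53 RPKM (1.77 ± 0.37), SYT11 by 2.06 from a level near 0, and the enolase ENO2 from 19.4 and 21.8 to 48.4 and 41.2 RPKM (1.10 ± 0.16). Among mesenchymal genes the repressors SNAI2 (2.17), SNAI1 (1.38) and ZEB1 (0.78) and fibronectin (FN1, 1.28) rose; SNAI2 went from 0.223 and 0.148 to 3.7 and 1.75 RPKM. The epithelial adhesion gene CDH1, from a list of 10 tested epithelial markers of which 3 rose and 1 fell, rose too (0.87). MT2A, an abundant metallothionein, went from 905 and 869 to 3411 and 2218 RPKM (1.63 ± 0.35), MT1E rose by 1.25 and MT1F by 1.01. In the Notch pathway 8 of 16 rose and 3 fell. Its target HEY1 went from 0.248 and 0.0864 to 3.12 and 2.32 RPKM (2.27 ± 0.34), HES1 from 4.62 and 4.73 to 14.6 and 12.1 RPKM (1.41 ± 0.15), and the ligand DLL4 (1.70) and the modifier LFNG (1.47) rose, while the receptor NOTCH1 fell (-0.40). Being below 0.5 RPKM in both Nutlin-3A libraries, HEY1 met the expression minimum only through libraries where it was higher. Of 14 Wnt targets 7 rose and none fell. AXIN2, a feedback inhibitor, went from 1.67 and 2.16 to 7.03 and 5.65 RPKM (3.31-fold, adjusted p = 0.00026), and the receptors EPHB3 (1.70) and EPHB2 (1.02) and the factor SP5 (1.18) rose. Combination replicate 1 was the higher of its pair for each gene of this paragraph that rose and has its libraries printed. Without it, the calls of SYT11, SYP, SNAI1, FN1, ZEB1, NOTCH1, MT2A, MT1E and MT1F were lost (adjusted p 0.051 to 0.22), and 3 neuronal, 2 mesenchymal, 1 metallothionein, 5 Notch and 4 Wnt genes were higher. SYT11, FN1, ZEB1, NOTCH1 and MT1F were lost without Nutlin-3A replicate 1 (0.052 to 0.18), the last 4 of these without its replicate 2 (0.056 to 0.11), and NOTCH1 without combination replicate 2 (0.13).

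Signalling and immune genes split in both directions, beside the 16.6% of all genes that rose and 18.1% that fell. Of 31 immediate early and ERK feedback genes 9 rose and 5 fell. The transcription factor KLF2 went from 10.3 and 10.6 to 66.2 and 30.9 RPKM (2.06 ± 0.37), and JUN (1.95), IER2 (1.29) and KLF6 (0.95) rose, whereas the ERK antagonist SPRY4 (-0.87) and EREG (-2.45) fell. Of 13 NF-kB targets 6 rose and 3 fell. The chemokine CXCL8 went from 0.726 and 0.863 to 5.04 and 3.14 RPKM (1.80 ± 0.22) and CXCL1 rose by 1.41, while the subunit gene NFKB1 went from 15.1 and 14.3 to 5.5 and 7.38 RPKM (-1.14 ± 0.19) and RELB (-0.83) and the cytokine CSF1 (-1.06) fell. Of 19 interferon response genes 5 rose, among them IRF7 (1.68), IFI6 (1.48) and OASL (1.45), and 3 fell, including PARP14 (-0.91). Of 11 genes of MHC class I presentation, 6 rose and 1 fell: HLA-E rose by 0.73 and HLA-F by 0.78, and the peptide transporter TAP1, a p53-responsive gene, fell from 5.02 and 4.67 to 2.72 and 2.7 RPKM (-0.74 ± 0.11). HLA genes resemble each other and may share reads. Without combination replicate 1, JUN, IER2, IRF7, IFI6, PARP14, HLA-F and HLA-E lost their calls (adjusted p 0.059 to 0.21), and 0 MHC class I, 1 interferon and 5 immediate early genes were then higher. Leaving out Nutlin-3A replicate 1 gave 3, 2 and 5, and leaving out its replicate 2 gave 2, 2 and 5. IER2, IFI6 and PARP14 were lost without Nutlin-3A replicate 1 (0.056 to 0.095), and JUN, IER2, RELB, IRF7, IFI6, PARP14 and HLA-E without its replicate 2 (0.052 to 0.094).

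Stress and metabolic lists are read against the same shares, 16.6% higher and 18.1% lower over all genes. Of 16 genes of the unfolded protein response of the endoplasmic reticulum, 5 rose and none fell, with the chaperone HSPA5 at 259 and 247 and then 512 and 422 RPKM (0.88 ± 0.17) and HERPUD1 up by 1.28. Of 13 heat shock genes DNAJB1 alone passed (1.23). Of 15 integrated stress response genes 4 fell, among them TRIB3 (-0.78) and the cystine transporter SLC7A11 (-0.83), and CEBPB rose (1.15). Of 25 cholesterol synthesis genes 6 rose, including INSIG1 (1.36). Of 19 hypoxia and glycolysis genes 6 rose, such as EGLN3 (1.27), and hexokinase HK2 fell from 16.4 and 13.7 to 4.85 and 6.21 RPKM (-1.37 ± 0.21). Of 17 YAP targets CTGF and CYR61 (1.75) rose and 4 fell, including AJUBA (-0.78). Of 4 germline antigens 1 rose and 1 fell, and of 3 tested markers of other cell types 2 rose. The chromatin lists that follow were not limited to the class I deacetylases that Entinostat inhibits, and each had members called in both directions. Of 11 histone deacetylase genes HDAC5 (0.74) and HDAC3 (0.40) rose and HDAC7 fell from 6.45 and 7.61 to 2.49 and 3.88 RPKM (-1.05 ± 0.23). Of 25 corepressor subunits 2 rose and 5 fell; MTA2 of the NuRD complex went from 70.5 and 64.3 to 34.2 and 41.1 RPKM (-0.84 ± 0.13) and SIN3A fell by 0.44. Of 17 replication-independent histone genes 5 rose and 1 fell. The linker histone H1FX went from 38.5 and 48.6 to 148 and 107 RPKM (1.53 ± 0.26) and the macroH2A gene H2AFY2 from 17.1 and 17 to 6.87 and 8.86 RPKM (-1.08 ± 0.16). Of 9 P-TEFb and BET genes CDK9 rose (0.38) and CCNT2 fell (-0.66), with 1 more lower. The calls of HERPUD1, DNAJB1, TRIB3, CEBPB, SLC7A11, INSIG1, HDAC7, HDAC3, SIN3A, CCNT2, CDK9 and CYR61 were lost without combination replicate 1 (adjusted p 0.054 to 0.31). The number higher was then 2 for the unfolded protein response, 2 for cholesterol synthesis, 1 for hypoxia and 3 for histones, and without Nutlin-3A replicate 1 it was 1, 0, 1 and 1. Without Nutlin-3A replicate 2 it was 4, 3, 2 and 4, and without combination replicate 2 it was 5, 2, 6 and 7. Leaving out Nutlin-3A replicate 1 ended those of HERPUD1, TRIB3, SLC7A11, INSIG1, HDAC3 and CDK9 (0.051 to 0.23), and leaving out combination replicate 2 ended that of INSIG1 (0.14). Without Nutlin-3A replicate 2, HERPUD1, SLC7A11, INSIG1, HDAC3, CCNT2, CDK9 and CYR61 were lost (0.066 to 0.18).

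**Figure D4:**
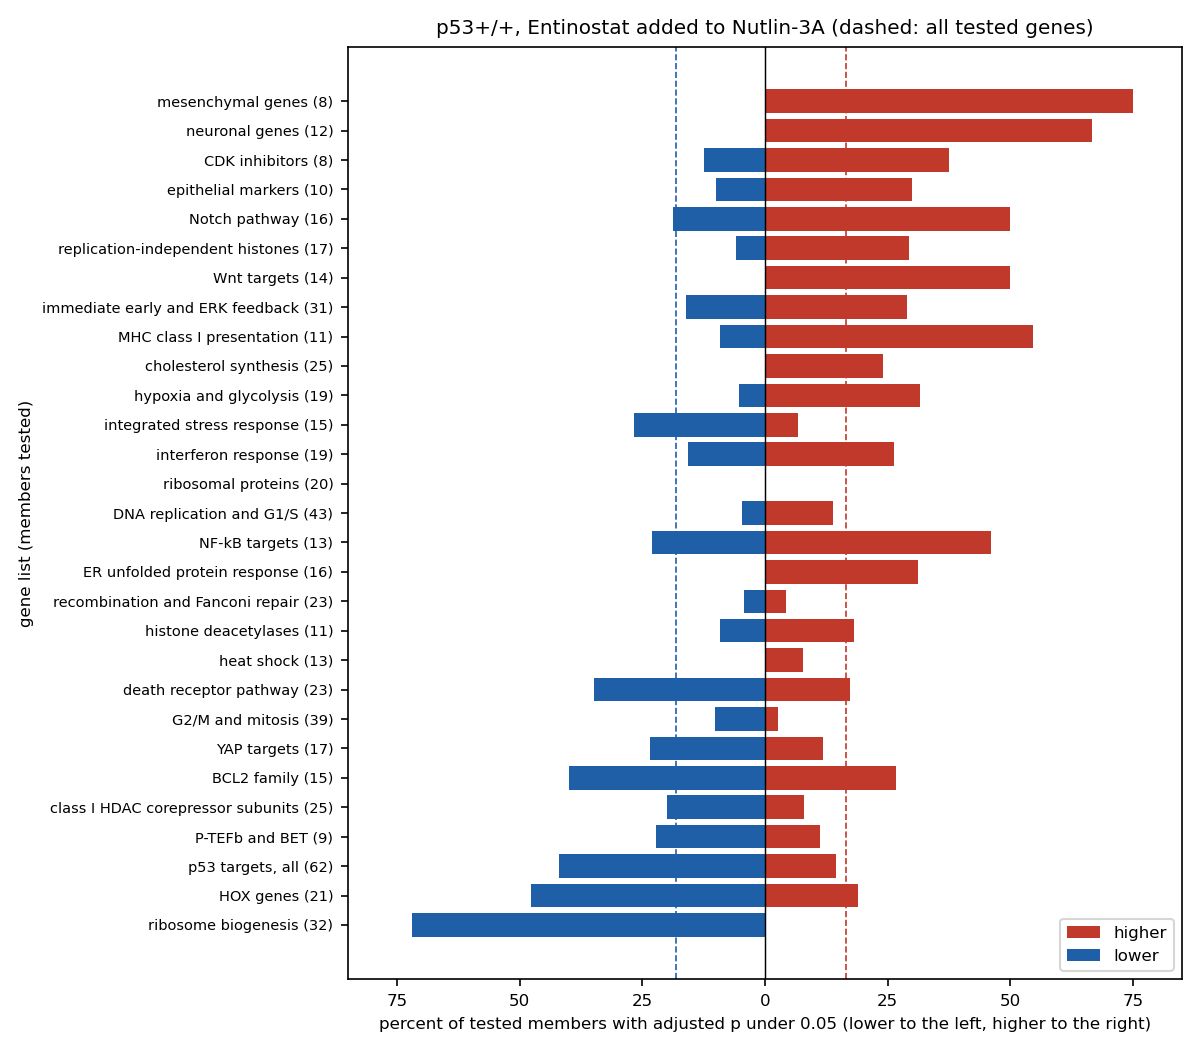
Percent of the tested members of each list of at least 8 genes that were lower (left, blue) or higher (right, red) with Entinostat added to Nutlin-3A in p53+/+ cells, ordered by the list's median. Dashed lines mark the shares over all tested genes, 18.1% lower and 16.6% higher. Ribosome biogenesis, with 23 of 32 members lower, reached furthest to the lower side.

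The response to added Entinostat was then compared directly between genotypes. In p53-/- cells 2912 of 12466 genes (23.4%) differed, 1696 higher and 1216 lower, and the split was 1012 higher and 1093 lower with quantile normalization. Without combination replicate 1 of the p53-/- cells 413 differed, without Nutlin-3A replicate 1 of those cells 1137 did, and without its replicate 2 1653 did. The test of the difference called 11 genes (0.0882%), and all 11 were lower in p53+/+ cells relative to p53-/- cells. That single direction did not hold under every setting. Without the expression minimum 14 were higher and 29 lower, and with the replicate number in the fit 15 were higher and 94 lower. An unadjusted p under 0.05 was reached by 789 genes. Of the 11 called genes, 10 are described. UNC5B-AS1, an antisense transcript, fell from 12.9 and 10.4 to 4.71 and 3.31 RPKM in p53+/+ cells and rose from 0.119 and 0.184 to 0.611 and 0.968 RPKM in p53-/- cells (difference -2.41, 95% interval -3.13 to -1.69, adjusted p = 0.034). The 2 genotypes moved in opposite directions for this gene, and reads of the gene on the opposite strand may be mixed in. DSC3, a desmosomal cadherin, fell from 6.03 and 5.53 to 2.37 and 2.94 RPKM against 0.514 and 0.434 and then 0.801 and 0.712 RPKM (difference -1.37). INPP5D, the lipid phosphatase SHIP1, fell from 3.64 and 3.39 to 0.932 and 1.33 RPKM and stood below 0.03 RPKM in every p53-/- library of this contrast (difference -1.36). A fall could not be measured from such a level, so that difference is nearly the p53+/+ change alone. IKBIP fell from 18.6 and 16.4 to 8.06 and 11.5 RPKM and rose from 4.56 and 4.41 to 6.64 and 6.36 RPKM in p53-/- cells (difference -1.32). The p53 targets ABCA12 (-1.30) and SESN1 (-1.19) passed as well. ABCA12 was likewise near 0 in p53-/- cells, at 0.0164 and 0.017 and then 0.038 and 0.0292 RPKM. SESN1 fell in p53+/+ cells from 23.1 and 21.5 to 16 and 16.9 RPKM and rose in p53-/- cells from 1.73 and 1.89 to 3.64 and 3.23 RPKM. The other 4, named here after their values were seen, were ZNF219 (-1.26), APAF1 (-1.06), PLEKHG1 (-1.03) and DGKA (-1.02).

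These 10 genes were higher with Nutlin-3A alone than with DMSO in p53+/+ cells. The differences were 2.97 for UNC5B-AS1, 2.45 for INPP5D, 2.36 for ABCA12, 2.34 for SESN1 and 1.71 for IKBIP. They were 0.99 to 1.61 for DSC3, ZNF219, APAF1, PLEKHG1 and DGKA. Those values share the Nutlin-3A libraries with the contrast tested here. The genotype count depended on single libraries: without combination replicate 1, Nutlin-3A replicate 1 or any single p53-/- library of the contrast the count was 0, without Nutlin-3A replicate 2 it was 3 and without combination replicate 2 it was 29. Adjusted p of the 6 genes given with RPKM or as p53 targets ranged from 0.069 to 0.31 across the 7 left-out libraries that ended their calls. It was also 0 with a pseudocount of 0.1 or with quantile normalization, and 43 without the expression minimum.

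**Figure D5:**
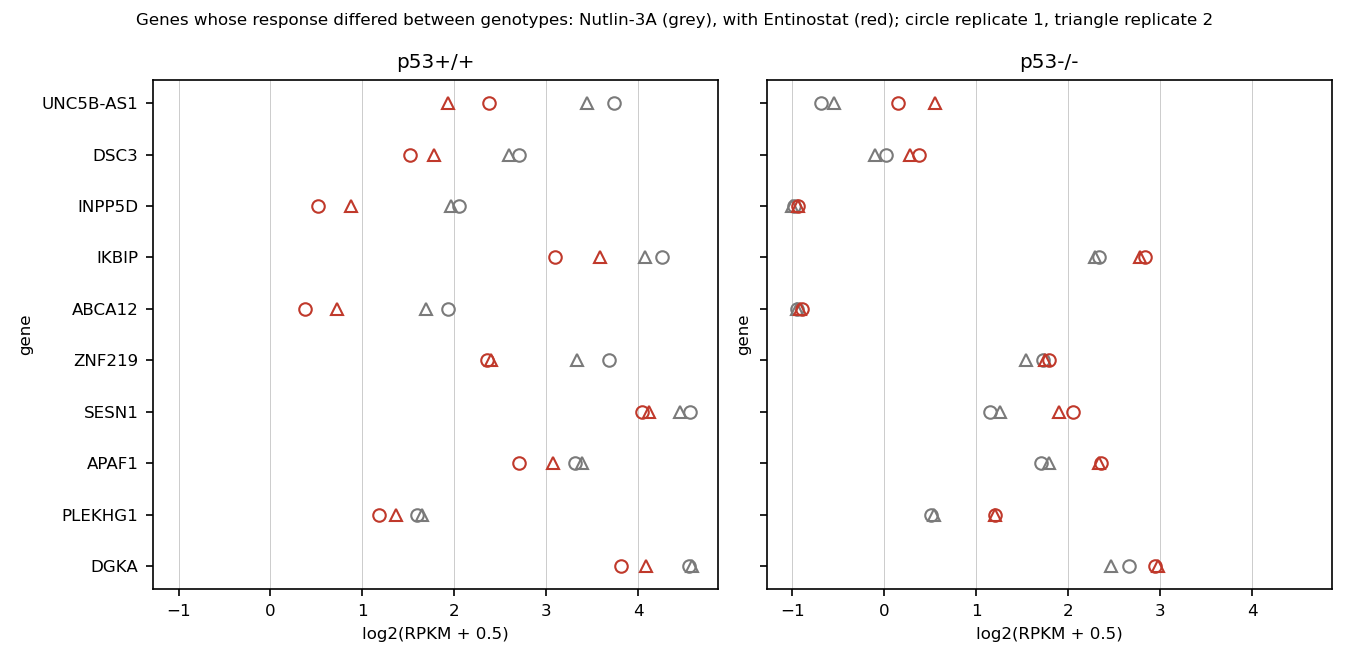
Level on the log2(RPKM + 0.5) scale of 10 of the 11 genes whose response differed between genotypes, in p53+/+ (left) and p53-/- (right) libraries, with Nutlin-3A in grey and Nutlin-3A plus Entinostat in red. Circles are replicate 1 and triangles replicate 2. The red points lie to the left of the grey points for all 10 genes in p53+/+ cells.

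Whether Nutlin-3A altered the response to Entinostat within p53+/+ cells was tested as a difference of differences. None of the 12466 genes (0%) passed the limma test at an adjusted p under 0.05, and 587 had an unadjusted p under 0.05. The lowest adjusted p was 0.31, reached among others by ABCA12 (-1.12), IKBIP (-1.19) and APAF1 (-0.89). For PLK3 the Entinostat effect was 2.22 with Nutlin-3A and 0.48 without, a difference of 1.74 (95% interval 0.64 to 2.84, adjusted p = 0.7). For FAS the effects were -1.52 and -0.45, a difference of -1.08 (-1.74 to -0.41, adjusted p = 0.7). For CFLAR they were -1.11 and -0.83, a difference of -0.27 (-0.79 to 0.24, adjusted p = 0.97). The intervals of PLK3 and FAS, taken singly, did not include 0, and that of CFLAR did. MDM2 had effects of 0.38 and -0.19, a difference of 0.57 (0.21 to 0.93, adjusted p = 0.7). BMF had effects of 1.58 and 1.66, a difference of -0.08 (-0.75 to 0.60, adjusted p = 0.99). The count was 25 without the expression minimum, 1 without Nutlin-3A replicate 2 and 4 without combination replicate 2.

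Measured from DMSO, the combination left PLK3 higher by 4.35 (adjusted p = 1.1e-05), FAS higher by 0.68 (adjusted p = 0.021) and CFLAR at -0.29 (adjusted p = 0.17). With Nutlin-3A alone they were higher than with DMSO by 2.13, 2.20 and 0.82. The combination and Nutlin-3A comparisons share the DMSO libraries. CDKN1A stood higher by 3.51 and 3.54, and MDM2 by 4.23 and 3.85, in the same order. Against DMSO 6236 genes (50%) differed with the combination, and 4144 did without combination replicate 1.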

How the data were processed

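The authors deposited 1 table of RPKM values per gene for all 16 libraries, from a strand-preserving TruSeq poly(A) protocol per the labels. Bowtie2, Partek and build hg19 are named per the submitters' processing notes; their versions, the gene models, the use of strand and multi-read handling were not given in the sources used here. RPKM are not counts, so log2(RPKM + 0.5) was fitted with limma 3.58.1 (R 4.3.3) as 8 group means over the 16 libraries, with an empirical Bayes mean-variance trend, for genes with a mean of at least 0.5 RPKM. Residual degrees of freedom were 8. P-values were adjusted by Benjamini-Hochberg over 12466 genes, with a threshold of 0.05. Folds are ratios of mean RPKM; log2 changes understate low genes. The fit was also run on simulated data, as a check of the code only. Named genes were CFLAR, FAS, PLK3, CDKN1A, MDM2 and TNFRSF10B, the 12 largest rises and 12 largest falls with a mean of at least 1 RPKM and no overlap, the 5 largest interactions each way, up to 6 called members per list, and members of the p53 target, death receptor, BCL2, polo-like kinase and CDK inhibitor lists. The members and all 38 lists were chosen with earlier results of these data known. Promoter windows came from RefSeq (GRCh38.p14, matched by symbol for 9378 of the 12466 genes; the first listed start was used). Alternatives were other pseudocounts, filters, scalings, a replicate block, fewer libraries and no trend. Results for some genes are not reported here.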

Additional observations from a re-analysis of the deposited data

Results flagged for a closer look

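For 10 genes the change with Entinostat added to Nutlin-3A differed between p53+/+ and p53-/- cells by a test of the difference itself, in the main fit. These calls depended on the settings and on single libraries. No gene passed that test with a pseudocount of 0.1 or with quantile normalization. The difference, p53+/+ minus p53-/-, was -2.41 on the log2 scale for UNC5B-AS1. It was -1.37 for DSC3, -1.36 for INPP5D, -1.32 for IKBIP and -1.30 for ABCA12. INPP5D and ABCA12 were barely detected in p53-/- cells, where a fall could not be measured. It was -1.26 for ZNF219, -1.19 for SESN1, -1.06 for APAF1, -1.03 for PLEKHG1 and -1.02 for DGKA.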

How the results depend on the processing

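In p53+/+ cells the count of 4323 genes was 3753 to 4733 under other pseudocounts, minimums, scalings, libraries or no trend, and leaving out 1 library gave 1698 to 4818. The p53 target counts were then 2 to 8 higher and 14 to 25 lower. The genotype count of 11 was 0 with a pseudocount of 0.1 or quantile normalization, 17 with a pseudocount of 1, 43 without a minimum, 7 with a minimum of 1 RPKM, 21 without a trend, and 0 to 29 with 1 library left out. The count of 0 for the drug interaction was 25 without a minimum and 0 to 4 with 1 library left out. The p53-/- count was 413 to 2903, and that of combination against DMSO 4144 to 6306, with 1 library left out. A fit with a replicate block gave 6529 calls (3117 higher, 3412 lower) in p53+/+ cells, 5141 in p53-/- cells and 109 for the genotype difference. FAS (-1.85, adjusted p = 0.011) and PLK3 (1.71, adjusted p = 0.012) were among the 109. Same-numbered libraries deviated together (r of 0.359 for the combination and Nutlin-3A pair, and 0.275 to 0.778 over 28 pairs of groups). The sample titles carry AM1 for replicate 1 and AM2 for replicate 2. No label says what these mark, and the main fit left them out. Genes that were not called changed sign with 1 library left out: CDKN1A (-0.32 to 0.25), TNFRSF10B (-0.134 to 0.0287), BBC3 (-0.592 to 0.0514), PLK2 (-0.30 to 0.31), GDF15 (-0.16 to 0.57), FDXR (-0.13 to 0.39), DDB2 (-0.0415 to 0.442), XPC (-0.00504 to 0.206) and SERPINB5 (-0.18 to 0.25). The causes were not tested. RPKM carry no read counts, so low levels such as CEND1 or BMF have no counting interval.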
